A study of Mus musculus with 8 samples.

Results

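The mouse pancreas secretes a small set of fat-digesting proteins, and 6 of their genes are described here: Pnlip, Clps, Pnliprp1, Pnliprp2, Cel and Pla2g1b. They were taken by name from the deposited gene table, where all 6 were found among 11789 listed genes, and all 6 were among the 10468 genes tested. RNA was sequenced from whole pancreas of 8 mice aged 6 weeks, with 1 library per mouse. The labels put 4 libraries in the DC group, Daxx fl/fl mice with a Pdx1-Cre transgene, and 4 in the wild-type (WT) group. Pdx1-Cre recombines floxed alleles in pancreatic progenitors, so blood vessels, stroma and immune cells of DC pancreas still carry intact Daxx alleles. No library comes from mice with only the transgene or only the floxed alleles, and the effects of these and of Daxx loss cannot be told apart. Each genotype had 2 females and 2 males, per the design text, but the sex of a given library is not given in the labels. The series title names basal expression in Daxx-deficient pancreas as the subject, so the comparison asks how each gene differs between DC and WT pancreas.

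Dietary triglyceride is split in the gut by pancreatic lipase, the product of Pnlip. Bile salts strip this lipase from fat droplets, and colipase, the product of Clps, anchors it there again. The other secreted enzymes cover further lipids. Pnliprp2 hydrolyses galactolipids and phospholipids and is needed for fat digestion in suckling mice, while Pnliprp1 is a close relative of pancreatic lipase with little known activity on triglycerides. Cel, the bile salt-dependent carboxyl ester lipase, cleaves cholesteryl and retinyl esters, and Pla2g1b is the phospholipase A2 of pancreatic juice. Colipase and Pla2g1b are secreted as precursors that trypsin activates. All of them are made by acinar cells.

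The library totals were 7705789 to 10517508 reads over the listed genes. Daxx itself had 23.3 to 32.55 normalized counts in DC and 39.65 to 58.7 in WT libraries, with no overlap. These values rest on 26 to 31 reads per library in DC and 45 to 51 in WT. Daxx was not called at a limma adjusted p under 0.05, and the smallest limma adjusted p of all tested genes was 0.138. Digestive enzyme genes, 27 in all with the 6 described here, took 67.5% to 73.5% of reads in DC libraries and 70.3% to 73.9% in WT libraries, the products that define acinar tissue. The amylase genes Amy2a2, Amy2a3, Amy2a4 and Amy2b were not among the listed genes, so these and later shares and ranks leave them out. Levels are given as normalized counts, that is, reads after division by the size factor of their library. SDs are over n = 4 libraries per genotype.

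In gene structure the 3 pancreatic lipase genes form a cluster, and the other 3 lie apart (GRCm38, GENCODE M21). Pnlip (ENSMUSG00000046008.7, chromosome 19, 58652498 to 58681788), Pnliprp1 (ENSMUSG00000042179.5, 58728887 to 58744169) and Pnliprp2 (ENSMUSG00000025091.3, 58759719 to 58777534) follow each other on the plus strand within 125.0 kb. Gaps of 47.1 kb and 15.5 kb separate them. Cel (ENSMUSG00000026818.5) lies on the minus strand of chromosome 2 from 28555795 to 28563403, and Pla2g1b (ENSMUSG00000029522.12) on the plus strand of chromosome 5 from 115466262 to 115474722. Clps (ENSMUSG00000024225.5) lies on the minus strand of chromosome 17 from 28558149 to 28560766, the chromosome that also carries Daxx, 5.35 Mb away. No exon of the 6 genes overlaps an annotated exon of another gene. None of the 50-base stretches of their protein-coding transcripts occurs in a transcript of another gene, 1570 stretches in Pnlip and 610 in Clps among them. A read of that length from inside these transcripts thus has no exact match in another gene's transcripts, also within the lipase cluster.

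The 6 genes together took 20.2% to 21.1% of reads in DC libraries and 19.8% to 21.7% in WT libraries. Most of this came from Pnlip and Cel. Pnlip held 8.92 ± 0.142% of reads in DC and 9.13 ± 0.676% in WT pancreas, and Cel 7.10 ± 0.453% and 7.04 ± 0.0902%. Pnlip received the most or second most reads of any listed gene in all 8 libraries, and Cel ranked 3 in all 8, before any adjustment for length. Pnliprp1 held 2.82 ± 0.0888% in DC and 2.92 ± 0.215% in WT, and Clps 1.02 ± 0.0303% and 1.02 ± 0.0906%. Pnliprp2 held 0.485 ± 0.0351% in DC and 0.468 ± 0.0310% in WT, and Pla2g1b 0.150 ± 0.0145% and 0.141 ± 0.0110%. The widest 95% Wilson interval of a single library's share was 0.0403 percentage points from end to end, for Pnlip, and covers counting error only. In all 6 genes and both genotypes the SD between mice was larger than the gene's own widest interval. In every gene the shares of the genotypes overlapped, with an exact two-sided permutation p between 0.429 and 1.

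**Figure D1:**
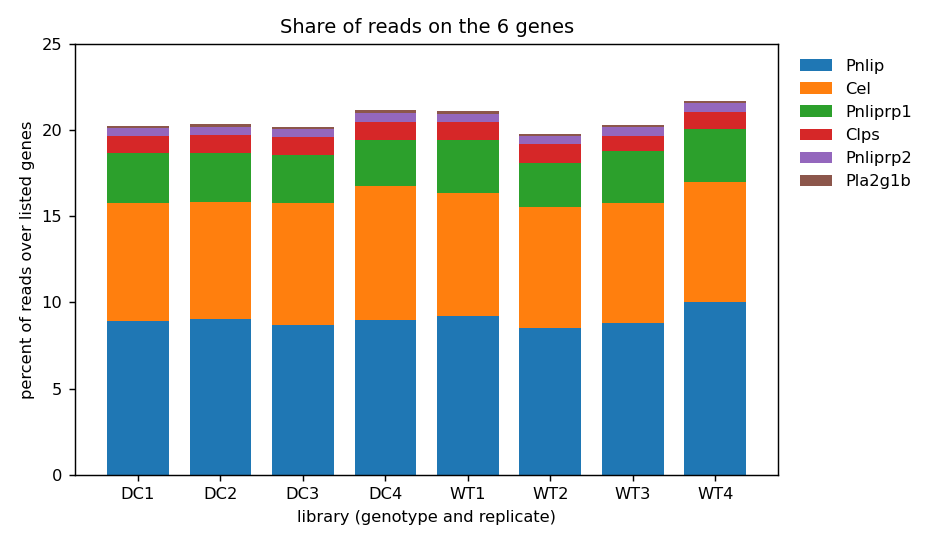
Stacked bars give the percent of each library's reads that fell on the 6 genes, with DC libraries left of WT libraries. Totals lay between 19.8% and 21.7%, and Pnlip and Cel made up most of each bar.

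Per kb of exon, the order of levels was Pnlip, Cel, Clps, Pnliprp1, Pnliprp2, Pla2g1b. Pnlip had 355886 ± 44540 normalized counts per kb in DC and 393932 ± 20355 in WT, and Cel had 297110 ± 57389 and 317060 ± 12751. Pnlip was above Cel within each of the 8 libraries, by 1.11 to 1.39 times, although their ranges over libraries overlapped. Clps, the cofactor, had 145598 ± 20096 per kb in DC and 158111 ± 18037 in WT, so that its short transcript ranked above Pnliprp1 (110762 ± 10829 and 124280 ± 4492) per kb while receiving fewer reads. This step of the order depended on the length used. Over the union of all annotated exons Clps stood at 1.29 times Pnliprp1, and over the longest protein-coding transcript of each, a setting chosen after seeing the data, at 0.941 times. The gap between Pnlip and Cel depended on length too, though their order did not. Their means over the 8 libraries were 374909 and 307085 per kb of exon, and 553413 and 313188 per kb of that transcript. Pnliprp2 (27200 ± 5365 in DC, 28198 ± 970 in WT) and Pla2g1b (18307 ± 1663 and 18739 ± 1760) were lowest, without overlap between neighbours from Clps downward. Pnliprp1 exceeded Pnliprp2, its neighbour in the cluster, 3.60 to 4.63 times per kb.

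Pnlip, the triglyceride lipase gene, had 713484, 708158, 784941 and 918093 normalized counts in DC replicates 1 to 4, against 851572, 854335, 824278 and 928537 in WT replicates 1 to 4. DC replicates 1, 2 and 3 lay below every WT library, while DC replicate 4 lay above 3 of the 4, so the genotypes overlapped. The means were 781169 ± 97766 in DC and 864681 ± 44680 in WT, with DC at 90.3% of WT. The log2 fold change was -0.15 ± 0.18 (limma SE), with a limma adjusted p of 0.9997 over all tested genes and an exact permutation p of 0.171.

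Clps, which encodes the cofactor of pancreatic lipase, had 78751, 81757, 89163 and 106169 in DC replicates 1 to 4, against 99868, 109940, 83937 and 92677 in WT replicates 1 to 4. The highest and the second highest libraries were WT replicate 2 and DC replicate 4, and the lowest were DC replicates 1 and 2. The means were 88960 ± 12278 in DC and 96606 ± 11021 in WT, a log2 fold change of -0.12 ± 0.14 (limma SE; adjusted p = 0.9997).

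Pnliprp1 had 232131, 221995, 254936 and 275836 in DC replicates 1 to 4, against 282498, 261483, 278981 and 282137 in WT replicates 1 to 4. Only DC replicate 4 reached into the WT range, and it exceeded WT replicate 2 alone. The log2 fold change, -0.17 ± 0.15 (limma SE; adjusted p = 0.9997), was the largest in size of the 6, with an exact permutation p of 0.0571. Pnliprp2, the galactolipase and phospholipase gene, had 35456, 37403, 44024 and 54149 in DC replicates 1 to 4, against 43605, 42593, 46013 and 45100 in WT replicates 1 to 4. DC libraries lay on both sides of a narrow WT range, and the log2 fold change was -0.07 ± 0.14 (limma SE).

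Cel, the carboxyl ester lipase gene, had 543732, 530806, 633013 and 792924 in DC replicates 1 to 4, against 663998, 704951, 657212 and 642214 in WT replicates 1 to 4. Here too DC replicates 1, 2 and 3 lay below every WT library and DC replicate 4 above every one. The means were 625119 ± 120747 in DC and 667094 ± 26829 in WT, a log2 fold change of -0.11 ± 0.19 (limma SE). Pla2g1b, the secreted phospholipase gene, had 11586, 13425, 12786 and 14415 in DC replicates 1 to 4, against 12754, 14694, 11922 and 14075 in WT replicates 1 to 4. Its libraries were interleaved, and its log2 fold change of -0.03 ± 0.11 (limma SE) was the smallest in size of the 6. Adjusted p-values were 0.9997 for Pnliprp2, Cel and Pla2g1b as well.

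**Figure D2:**
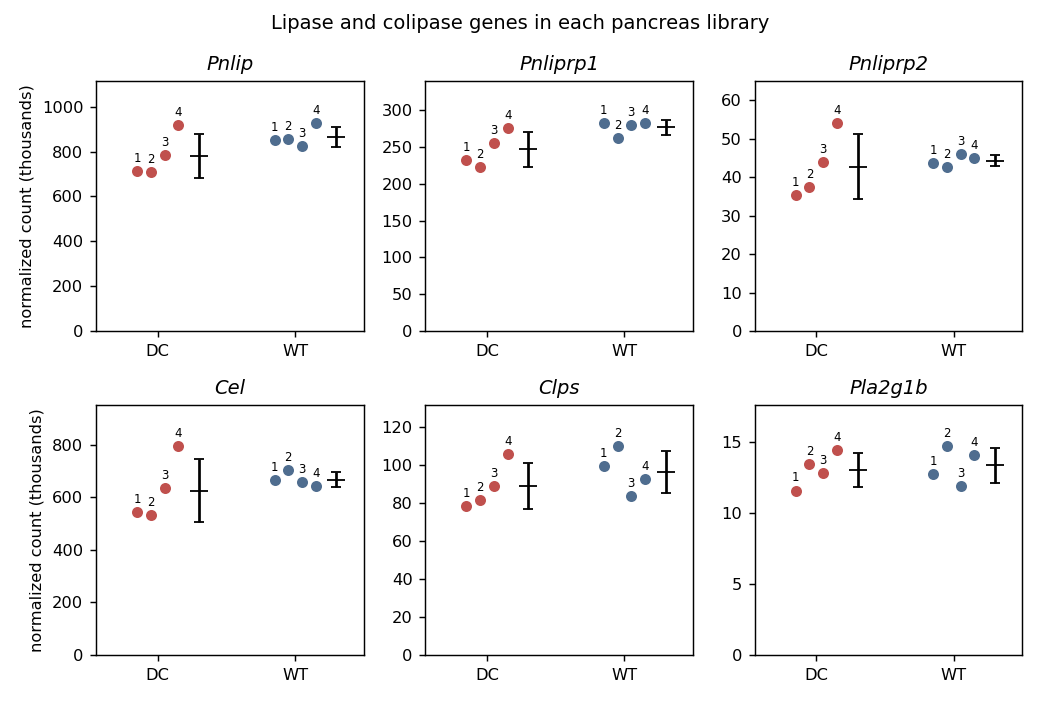
Points are normalized counts for each of the 6 genes, on an axis scaled down as labelled, numbered by replicate, with DC left of WT and bars for mean and SD (n = 4). DC replicates 1 and 2 were the lowest libraries in Pnlip, Pnliprp1, Pnliprp2, Cel and Clps, and DC replicate 4 the highest in Pnliprp2 and Cel.

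Across the 6 genes, 0 were called between the genotypes at a limma adjusted p under 0.05, where 0% of all tested genes were called. At an unadjusted p under 0.05 the count was also 0 of 6, against 2.88% of all tested genes. Groups of 4 and 4 libraries did not overlap in 0 of 6 genes, against 1.87% of all tested genes. edgeR's quasi-likelihood test and DESeq2 on the recovered reads also called 0 of the 6. All 6 had a log2 fold change below 0 under the deposited scaling, with a median of -0.12, where 51.9% of all tested genes were below 0 and their median was -0.01. With equal library totals 2 of the 6 lay below 0. Over all tested genes the median under that scaling was 0.11, and all 6 lay below it. Under quantile normalization only 2 of the 6 lay below the median of all tested genes, and without DC replicate 1 it was 4 of the 6. The 6 genes share their libraries and are not independent. The limma intervals bound the level in DC at 0.687 to 1.18 times WT for Pnlip, 0.703 to 1.22 times for Cel and 0.744 to 1.14 times for Clps. These 95% bounds give the levels compatible with the data, before adjustment over genes. They do not give the smallest change that this fit could call. limma's SE, which follows the trend of spread over expression level, was wider than that of the gene's own values in 5 of the 6 genes, 0.182 against 0.0946 for Pnlip, but not in Pnliprp2 (0.138 against 0.140). No difference was called, and in whole tissue a change in acinar cell number and in RNA per cell could not be told apart.

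**Figure D3:**
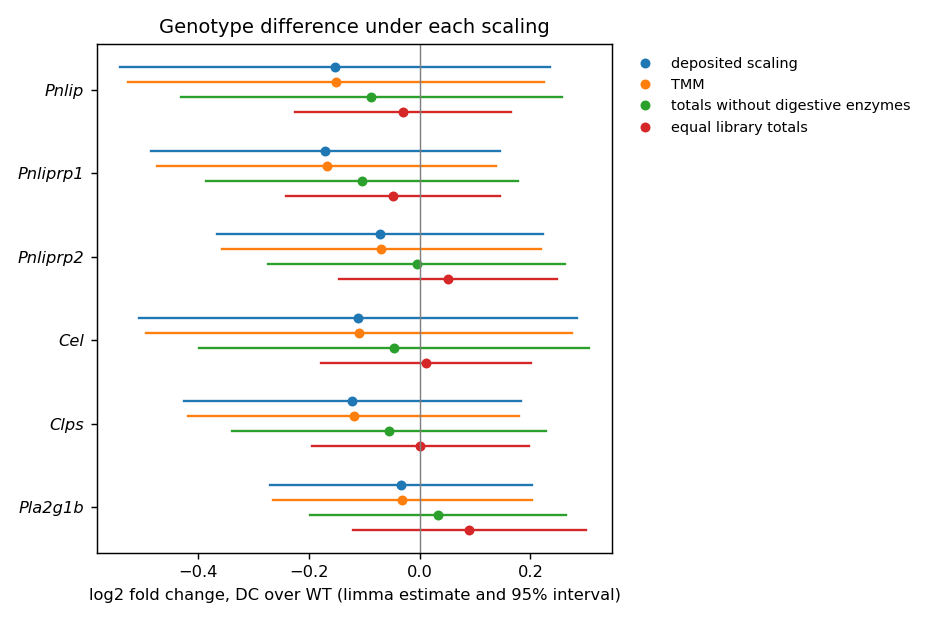
Points are limma log2 fold changes (DC over WT) with 95% intervals for each gene under 4 scalings of the libraries. Every interval spans 0, and estimates moved upward when libraries were set to equal totals.

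In normalized counts DC mice had the larger SD in 5 of the 6 genes, Pla2g1b being the exception, where 52.9% of all tested genes had the larger SD in DC. In share of reads the SD was larger in DC for 3 of the 6, Pnliprp2, Cel and Pla2g1b, and larger in WT for Pnlip, Pnliprp1 and Clps. The coefficient of variation of normalized counts of Cel was 19.3% in DC and 4.02% in WT, that of Pnliprp2 was 19.7% and 3.44%, and that of Pnlip was 12.5% and 5.17%. Clps (13.8% and 11.4%) and Pla2g1b (9.08% and 9.39%) varied to a similar extent in both. DC replicates 1 and 2 had the smallest totals of normalized counts over all genes, 7971329 and 7827886, and DC replicate 4 had the largest of any library, 10221816, with WT libraries between 9234705 and 10050253. Genes outside the digestive enzymes summed to 2493810 to 2704310 in DC libraries and 2627340 to 2750240 in WT libraries. The other 21 enzyme genes summed to 3803420, 3693970, 4689290 and 5355920 in DC replicates 1 to 4, against 4563520, 5434920, 4729260 and 4585580 in WT replicates 1 to 4. DC replicates 1 and 2 were thus lowest in these enzymes as in the sum of the 6 genes, while DC replicate 3 lay above 2 WT libraries in the other enzymes and below every WT library in the 6 genes. As a share of all enzyme reads the 6 genes held 27.9% to 30.1% in DC and 26.8% to 30.4% in WT libraries. The spread was not tested between genotypes.

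Ratios within a library do not depend on how libraries are scaled, and 0 of the 5 ratios to Pnlip passed a test between genotypes. Clps had 11.0, 11.5, 11.4 and 11.6 reads per 100 of Pnlip in DC replicates 1 to 4, against 11.7, 12.9, 10.2 and 9.98 in WT replicates 1 to 4. The cofactor's ratio had the smaller SD in DC mice (11.4 ± 0.244, against 11.2 ± 1.36 in WT mice), and all DC libraries lay inside the WT range. Cel had 76.2, 74.96, 80.6 and 86.4 reads per 100 of Pnlip in DC replicates 1 to 4, against 78.0, 82.5, 79.7 and 69.2 in WT replicates 1 to 4. Pnliprp1 had 31.6 ± 1.17 in DC and 32.0 ± 1.76 in WT, and Pnliprp2 had 5.44 ± 0.402 and 5.14 ± 0.316. Pla2g1b had 1.68 ± 0.147 in DC and 1.54 ± 0.120 in WT, a difference in log2 ratio of 0.12 ± 0.08 (SE), the largest of the 5. Exact permutation p-values lay between 0.229 and 0.8, or 0.643 and 0.8 adjusted over the 5 ratios, where 4 against 4 libraries can reach 0.0286 at the lowest. All 5 overlapped between genotypes.

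**Figure D4:**
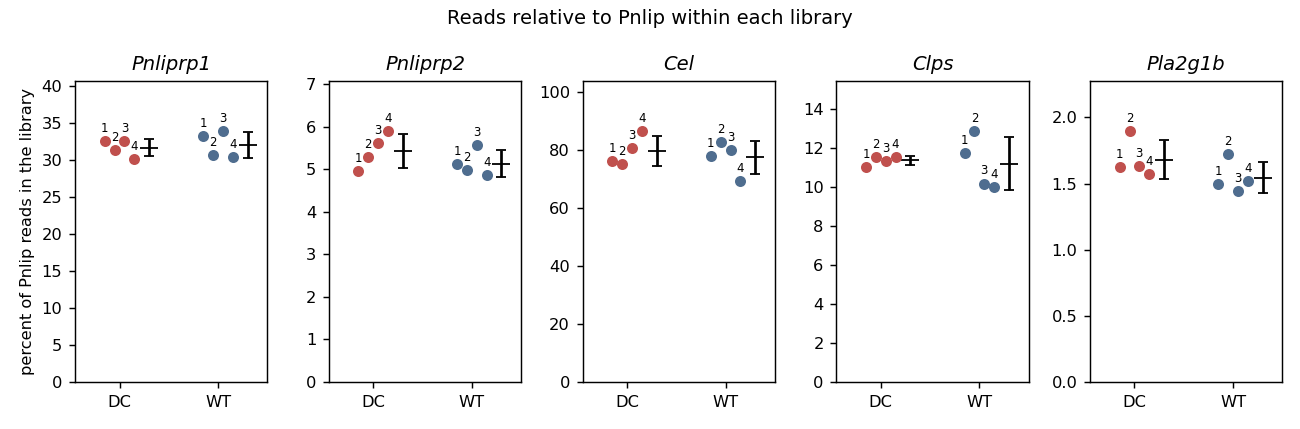
Points are reads of each gene per 100 reads of Pnlip in the same library, numbered by replicate, with DC left of WT and bars for mean and SD (n = 4). Groups overlapped in all 5 panels, and Clps spread more among WT than among DC libraries.

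Over the 8 libraries the genes varied together under the deposited scaling. All 15 pairs had a Pearson r of log2 values above 0, with a median of 0.77. Of the 15 pairs, 6 had an exact permutation p under 0.05 after Benjamini-Hochberg adjustment. Pnlip and Pnliprp1, neighbours in the cluster, had r = 0.904 (exact permutation p = 0.00369, adjusted 0.0294) and a Spearman rho of 0.738 (p = 0.0458, adjusted 0.138). Pnliprp2 and Cel, on different chromosomes, had r = 0.915 (exact permutation p = 0.00583, adjusted 0.0294) and rho of 0.595 (p = 0.132, adjusted 0.198). Cel and Clps had r = 0.855 (exact permutation p = 0.0060, adjusted 0.0294) and rho of 0.881 (p = 0.00724, adjusted 0.109). By ranks 0 of the 15 pairs passed after adjustment. Pnliprp1 and Pla2g1b had the lowest r, 0.244 (exact permutation p = 0.553, adjusted 0.553), with rho of 0.0476 (p = 0.935, adjusted 0.935).

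The joint variation rested in part on single libraries and on the scaling. Without the pair of libraries farthest from the median of the first gene, r was 0.613 for Pnlip with Pnliprp1, 0.773 for Pnliprp2 with Cel and 0.830 for Cel with Clps, and the median over 15 pairs was 0.477. Subtracting each genotype's mean left a median r of 0.78 over the 8 libraries pooled, where DC libraries had the wider spread in 5 of the 6 genes. This does not show the relation in each genotype, and 4 libraries are too few for an r of their own. Among WT libraries replicate 4 had the highest Pnlip and the lowest Cel. With equal library totals the median r was -0.01 and 0 of 15 pairs passed. The highest were then Pnlip with Pnliprp1, at 0.668, and Pnliprp2 with Cel, at 0.613. With libraries scaled to the total of genes outside the digestive enzymes the median r was 0.695, all 15 stayed above 0, and 0 passed after adjustment.

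**Figure D5:**
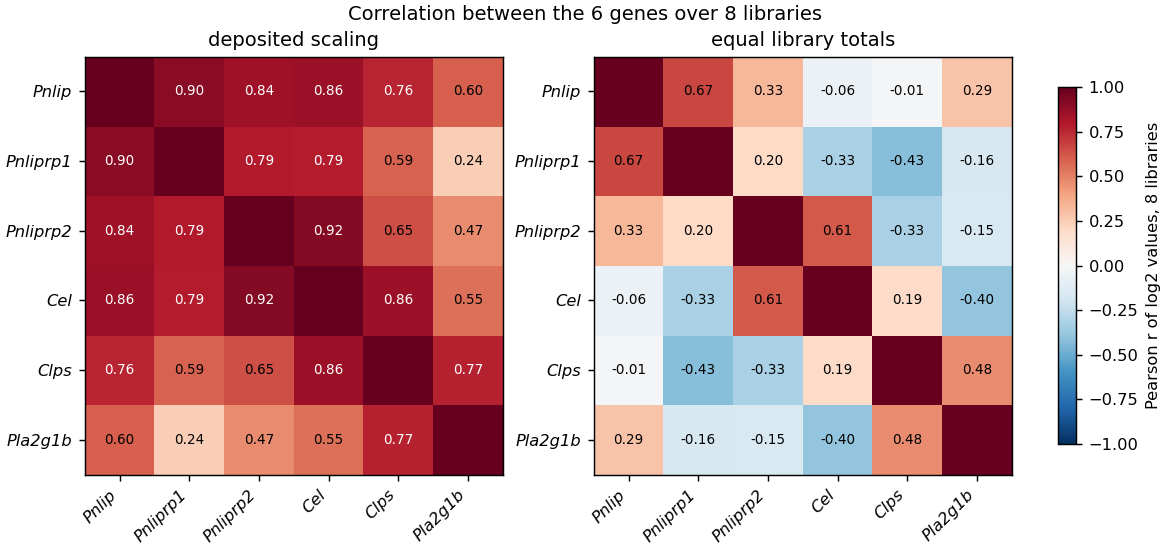
Each square gives Pearson's r between the log2 values of a pair of the 6 genes over 8 libraries, under the deposited scaling on the left and with equal library totals on the right. All pairs lay above 0 on the left, and 7 of 15 did on the right.

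The promoters of the genes in the most closely correlated pairs, Pnlip with Pnliprp1 and Pnliprp2 with Cel, are shown because these genes varied together. The sequences are the 250 bases before the RefSeq transcript start (GRCm38.p6), 5′ to 3′ along the gene. The RefSeq start of Pnlip lies inside the longer GENCODE span of the gene. Capitals mark matches to 4 motifs, on either strand: the TATA box TATAAA, the core TGGGAA read by RBPJ and by its acinar relative RBPJL, the E-box CACCTG bound by the acinar regulator PTF1, and CAAGGNCA, a half-site of the acinar nuclear receptor NR5A2. No matches overlapped each other.
Pnlip, chr19:58670115-58670364, plus strand: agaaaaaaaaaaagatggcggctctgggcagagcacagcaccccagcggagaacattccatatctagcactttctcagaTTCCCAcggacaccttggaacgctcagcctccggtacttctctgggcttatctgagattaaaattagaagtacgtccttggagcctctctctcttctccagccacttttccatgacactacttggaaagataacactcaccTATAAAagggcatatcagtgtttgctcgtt
Pnliprp1, chr19:58728637-58728886, plus strand: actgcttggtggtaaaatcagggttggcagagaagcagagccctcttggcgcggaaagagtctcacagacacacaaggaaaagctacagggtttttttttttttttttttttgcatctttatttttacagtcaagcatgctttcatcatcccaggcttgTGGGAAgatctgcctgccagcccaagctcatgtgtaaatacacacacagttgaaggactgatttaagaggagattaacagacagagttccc
Pnliprp2, chr19:58759473-58759722, plus strand: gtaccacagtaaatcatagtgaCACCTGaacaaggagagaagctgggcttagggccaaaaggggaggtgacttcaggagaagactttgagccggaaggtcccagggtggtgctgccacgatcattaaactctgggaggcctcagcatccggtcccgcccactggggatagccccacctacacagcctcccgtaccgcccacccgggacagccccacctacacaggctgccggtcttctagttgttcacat
Cel, chr2:28563404-28563653, minus strand: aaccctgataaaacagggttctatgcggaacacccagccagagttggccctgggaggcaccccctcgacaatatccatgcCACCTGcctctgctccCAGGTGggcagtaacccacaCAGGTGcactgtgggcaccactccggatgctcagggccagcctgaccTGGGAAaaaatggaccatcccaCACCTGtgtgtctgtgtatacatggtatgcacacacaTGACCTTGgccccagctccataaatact

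Of 5 members with a promoter in the RefSeq table, 3 held TGGGAA, against 21.6% of 32851 mouse promoters of the same length. Pnlip had it on the opposite strand from base -171, Pnliprp1 from base -91 and Cel from base -87, counting -1 as the base before the start. CACCTG stood in 2 of the 5, against 17.2% of promoters. Cel held 4 of these E-boxes, starting at -170, -154, -134 and -65, and the last began 22 bases after the start of its TGGGAA. Pnliprp2 had 1 at -228. TATAAA was found only in Pnlip among the 5, from base -30, against 12.4% of promoters, and CAAGGNCA only in Cel, on the opposite strand from -28, against 5.53%. The promoter of Pla2g1b held none of these 4 motifs, nor did any of the 5 hold CAGCTG, another E-box that 13.0% of promoters held. These are matches of letters in 1 window, and binding was not measured.

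For each gene, the pattern over the 8 libraries was also compared with that of every tested gene, by Pearson's r of log2 values under the deposited scaling. This was not repeated with equal library totals, where the median r among the 6 genes was -0.01. Pnliprp1 was the 9th closest of all tested genes to Pnlip, and Pnlip the 8th closest to Pnliprp1. Pnliprp2 ranked 25th for Cel, and Cel 18th for Pnliprp2, while Pnliprp1 ranked 2837th or lower with Pla2g1b in either direction. Outside the 6, Pnlip was closest to Opn3, an opsin gene (r = 0.969), the acylglycerol kinase gene Agk (0.939) and the clock factor gene Npas2 (0.938). Pnliprp1 was closest to Dock5, a Rac activator (0.949), the zinc finger gene Zfp354a (0.927) and the trypsin inhibitor gene Spink1 (0.924). Pnliprp2 was closest to Ndrg1 (0.967), the protease inhibitor gene Spint1 (0.954) and the syntaxin gene Stx1a (0.946). Cel was closest to Tmem59 (0.982), Rflnb (0.979) and Rufy4 (0.973). Clps was closest to another acinar product, Ctrl, a chymotrypsin-like protease (0.974), then to the ribosomal protein genes Rpl41 (0.965) and Mrpl14 (0.960). Pla2g1b was closest to Uqcr11, of respiratory complex III (0.982), Pik3r5 (0.952) and Ndufs8, of complex I (0.949). The highest r among 10468 genes and 8 libraries is large by selection, and Opn3 averaged 11.3 ± 6.42 normalized counts in DC and 17.8 ± 6.99 in WT. Zfp354a, Stx1a, Rufy4 and Pik3r5 were low as well, with means of at most 21.1 in either genotype.

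The other pancreatic enzymes held no called gene. Of 17 proteases, 15 lay below 0 and 2 above, with a median log2 fold change of -0.16 under the deposited scaling, against 10 below and 7 above with equal library totals (median -0.04). The median of all tested genes was 0.11 with equal totals, which moves splits about 0 upward for genes in general, here and in the lists below. The chymotrypsin gene Ctrc (17080 ± 26860 in DC, 55560 ± 34490 in WT) and the trypsinogen gene Prss1 (597.3 ± 239.5 and 308.3 ± 158.1) had the smallest unadjusted p-values with Try10, another trypsinogen gene (2657 ± 328.0 and 3777 ± 1377). Ctrc differed widely between mice of both genotypes. All 3 overlapped between genotypes. Of 4 tested amylase and nuclease genes, 3 lay below 0 under the deposited scaling and 1 with equal library totals, with Rnase1, the pancreatic ribonuclease, at 96190 ± 4885 in DC and 105300 ± 12230 in WT, and 0 were called.

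Lipid hydrolases outside the secreted set act mainly inside cells or at vessel walls. Of 16 tested genes, 11 lay above 0 and 5 below (13 and 3 with equal library totals), 0 were called, and the median log2 fold change was 0.05. With equal library totals that median was 0.18, against 0.11 over all tested genes. The carboxylesterase gene Ces1d had 105.1 ± 18.2 normalized counts in DC and 81.7 ± 10.9 in WT (limma adjusted p = 0.9997). Lipe, the hormone-sensitive lipase of fat cells, had 52.6 ± 13.5 and 37.8 ± 3.49. The phospholipase gene Ddhd1 had 76.05 ± 8.13 in DC and 90.35 ± 12.7 in WT. Among other secreted phospholipases A2 and their receptor, 3 genes were tested and 0 called. Pla2g12a had 96.2 ± 25.3 in DC and 94.7 ± 7.74 in WT, and Pla2g15, the lysosomal phospholipase of this list, had 22.5 ± 2.17 and 23.4 ± 7.198. The receptor gene Pla2r1 had 15.5 ± 4.71 in DC and 23.0 ± 4.88 in WT.

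Genes that fold secreted lipases in the endoplasmic reticulum showed 5 above and 7 below 0 of 12 under the deposited scaling, and 0 were called. With equal library totals the split was 11 above and 1 below, at a median of 0.0975, below the 0.114 of all tested genes. Hspa5, the chaperone BiP, had 7437 ± 2048 in DC and 6207 ± 1936 in WT, Hsp90b1 had 3051 ± 498.8 and 2589 ± 742.2, and the pancreatic disulfide isomerase gene Pdia2 had 191.6 ± 14.6 and 214.5 ± 13.1. Lipase maturation factor Lmf1, named here for its role and outside the naming rule, had 122.5 ± 11.1 in DC and 126.3 ± 14.1 in WT. Acinar transcription factors showed 10 above and 4 below 0 of 14 (13 and 1 with equal library totals), with 0 called and a median of 0.09. Their median with equal library totals was 0.21. Foxa2 had 96.7 ± 17.9 in DC and 76.7 ± 18.7 in WT, Gata4 had 340.9 ± 60.1 and 297.3 ± 38.2, and Bhlha15, the Mist1 gene, had 1985 ± 241.4 and 1822 ± 248.7. Among factors whose motifs are marked above, Ptf1a, Rbpjl and Nr5a2, again named for their role, were close between genotypes in mean. Values are under the deposited scaling, and Rbpj is not given here. Ptf1a had 167.9 ± 51.8 in DC and 166.5 ± 26.98 in WT, Rbpjl had 2779 ± 541.7 and 2824 ± 824.5, and Nr5a2 had 410.4 ± 73.8 and 387.5 ± 79.4. Of 17 tested secretagogue receptor and granule genes, 6 lay above and 11 below 0, and 0 were called. With equal library totals the split was 10 above and 7 below, at a median of 0.019. Sctr, the secretin receptor, had 25.6 ± 8.14 in DC and 7.04 ± 2.16 in WT. The trypsin inhibitor gene Spink1 had 5034 ± 649.4 in DC and 6540 ± 266.8 in WT. Neither overlapped between genotypes, at a limma adjusted p of 0.9997. They were the 2 of these 17 without overlap, against 1.87% of all tested genes, and were named for their small unadjusted p-values. Cuzd1, of the granule membrane, had 16900 ± 2082 and 21000 ± 1588, with overlap.

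Marker lists of other cell types held 0 called genes, and the splits by sign in brackets below are under the deposited scaling. With equal library totals the median of all tested genes was 0.11. Ductal markers were then 10 above and 1 below 0, also at a median of 0.11. Endothelial markers were 7 and 2, stromal 8 and 4, myeloid 6 and 2, adipocyte 5 and 5, and islet 3 and 11. The Reg genes stayed 0 and 6, the gut genes 3 and 3, and the lymphoid markers 2 and 0. Summed over listed genes, adipocyte markers had 364 to 1973 normalized counts in DC and 472 to 1160 in WT libraries (3 above and 7 below 0 of 10 tested), islet markers 1816 to 7991 and 2284 to 8327 (2 and 12 of 14), and ductal markers 11260 to 14638 and 12506 to 15148 (5 and 6 of 11). Stromal markers had 3692 to 5884 in DC and 3448 to 5239 in WT (6 and 6 of 12), endothelial markers 731 to 914 and 700.3 to 905 (5 and 4 of 9), and myeloid markers 324 to 731 and 413 to 601 (4 and 4 of 8). Lymphoid markers had 12.6 to 119 and 6.20 to 54.6 (2 above 0 of 2), while the T cell marker Cd3e was not among the listed genes. Gut genes of fat absorption had 163 to 288 in DC and 177 to 247 in WT (3 and 3 of 6), where the enterocyte genes Fabp1 and Fabp2 were not listed, and Reg genes, induced in injured pancreas, had 63857 to 145210 and 72448 to 178540 (0 and 6 of 6). All these ranges overlapped between genotypes, and their part in the levels of the lipase genes was not tested.

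Genes next to the lipase genes received far fewer reads. Within 500 kb of the cluster on chromosome 19, 3 genes were listed, Gfra1, Hspa12a and Shtn1, and none had more than 146 normalized counts in any library. Their log2 fold changes lay between -0.12 and 0.19. Within 500 kb of Clps 15 genes were listed, the highest at 894.5, and 14 tested ones lay between -0.59 and 0.21 with 0 called. Around Cel 11 genes reached at most 255.1, and 9 tested ones lay between -0.57 and 0.05. Around Pla2g1b 22 genes reached at most 4111, and 21 tested ones lay between -0.81 and 0.66. The tested neighbours were 3 around the cluster, 14 around Clps, 9 around Cel and 21 around Pla2g1b. Of all these, 3 did not overlap between genotypes, where 1.87% of all tested genes did not. They were named after their values were seen, and each was lower in DC at a limma adjusted p of 0.9997. Gbgt1, near Cel, had 34.1 ± 2.28 in DC and 51.8 ± 11.5 in WT. Near Pla2g1b, Gatc had 36.0 ± 2.68 in DC and 42.4 ± 1.66 in WT, and Bicdl1 had 9.89 ± 2.15 and 18.1 ± 3.69.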

How the data were processed

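The deposited values are a signal, reads scaled by 1 size factor in each library. STAR 2.6.0b, DESeq2 and GRCm38 are named, per the submitters' processing notes. The counting tool is not given there. Values were whole multiples of 1 step per library, giving whole reads for 100% of values within 0.001. Replicates were compared by chi-square of their reads (6.81 to 25.3 per degree of freedom), and no 2 were alike within sampling noise.

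Genes averaging 10 or more normalized counts entered limma 3.58.1 (R 4.3.3, trend option) on log2(value + 1), with genotype as the only term and Benjamini-Hochberg adjustment over 10468 genes. This understates changes of low genes. Single values were tested by exact permutation over 70 relabellings, and correlations over all 40320 orders of the libraries (scipy 1.17.1). The fit was tested on simulated data. edgeR 4.0.16 (0 genes called, 299 at an unadjusted p under 0.05) and DESeq2 1.42.0 (1 called, 219) were run on the recovered reads. Fit p-values weigh a genotype difference against the spread between these 8 mice, with limma's spread drawn toward its trend over genes. Permutation p-values compare the observed value with relabellings or reorderings of the same libraries.

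Exonic lengths and coordinates come from GENCODE M21, in which 11781 IDs matched without version. Promoters come from RefSeq (GRCm38.p6). The members and gene lists were chosen with earlier results of these data known. Genes named are the 6 members, Daxx, up to 3 genes per list with the smallest unadjusted p, the 3 genes closest in pattern to each member, and others said to be outside this rule.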

Additional observations from a re-analysis of the deposited data

Results flagged for a closer look

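Each group of 4 libraries was checked by Dixon's test for a library far from the other 3, in 34 groups of counts, shares and ratios, and 2 stood out where chance gives 1.7. Pnliprp1 in WT replicate 2 had 261483 normalized counts, below the other WT libraries at 278981 to 282498, with a gap of 0.833 of the group's range. Pla2g1b in DC replicate 2 took 0.172% of reads, above the other DC libraries at 0.141% to 0.145%, with a gap of 0.858 of the range. In reads per 100 of Pnlip the same Pla2g1b library also had the highest value, 1.90, but did not stand out by the same test.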

How the results depend on the processing

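The 6 genes were called in 0 of 22 alternatives, in which the smallest adjusted p of a member was 0.964 to 1. Over all genes 1 was called, against 0, with equal library totals, robust moderation, the Y-linked covariate and DESeq2, and 0 to 1 with each library left out, the 1 without DC replicate 2. Pnlip kept a log2 fold change below 0 in every alternative run. With equal library totals the change was 0.0512 for Pnliprp2, 0.0107 for Cel, 0.0010 for Clps and 0.0893 for Pla2g1b, all above 0. Quantile normalization gave 0.0285 for Pnliprp1, 0.0847 for Pnliprp2, 0.0378 for Clps and 0.0727 for Pla2g1b. Scaling to genes outside the digestive enzymes gave 0.0325 for Pla2g1b. The cause was not tested.

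With each library left out the log2 fold change ran from -0.192 to 0.0119 for Pnliprp2, above 0 without DC replicate 1, and from -0.0865 to 0.0225 for Pla2g1b, above 0 without DC replicate 1 or WT replicate 2. Log2 ratios to Pnlip ran from -0.0417 to 0.0102 for Pnliprp1, from -0.0114 to 0.0735 for Cel and from -0.0208 to 0.101 for Clps. Differences in share of reads ran from -0.419 to 0.0987 percentage points for Pnlip, from -0.157 to 0.168 for Cel and from -0.0430 to 0.0233 for Clps. None of these passed 0.05.

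With equal library totals 8 correlations changed sign. They were Pnlip with Cel (-0.0618) and Clps (-0.0125), Pnliprp1 with Cel (-0.33), Clps (-0.43) and Pla2g1b (-0.16), Pnliprp2 with Clps (-0.33) and Pla2g1b (-0.15), and Cel with Pla2g1b (-0.40). No paired analysis was possible because the labels give no replicate numbers that pair mice across genotypes. Each of the 6 genes had at least 11224 reads in every library.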
